A study of Mus musculus with 12 samples.

Results

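The transcripts of 10 secreted cytokines, Il6, Il10, Il12a, Il12b, Il23a, Il27, Osm, Lif, Csf3 and Csf1, were followed in mouse peritoneal macrophages that were or were not given red blood cells (RBC) to engulf. The genes were chosen by name as cytokines of the interleukin-6 (IL-6), IL-10, IL-12 and colony-stimulating factor kinds. All 10 were found among the 19938 genes measured, each with 1 probe set that lists no other gene. Osm, Lif, Il12b and Csf3 lie on chromosome 11, Csf1 and Il12a on chromosome 3, and Il10, Il6, Il27 and Il23a on chromosomes 1, 5, 7 and 10. Donors were C57BL/6 mice that entered a 12-week feeding period at 6 weeks of age, on a high-fat (HF) diet or on chow. Thioglycollate, an irritant that draws macrophages into the peritoneal cavity, was injected before the cells were collected by lavage. In culture, HF macrophages and chow macrophages received RBC of HF-fed mice (HF RBC), RBC of chow-fed mice (chow RBC) or no RBC. Each of the 6 combinations had 2 Affymetrix Mouse Gene 1.0 ST arrays, labelled as animal replicates 1 and 2, and all 12 arrays carried RNA amplified with the same kit. The labels do not say whether an animal's cells were split between RBC conditions, so p-values measure the spread between these samples, which may be technical in part.

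Values are log2 signals as deposited, on which a difference of 1 is a doubling. Differences are given ± SE from a limma fit to all genes and all 12 arrays, and a gene is called where the Benjamini-Hochberg adjusted p over all genes is below 0.05. Probe sets differ in brightness, so levels are compared between samples and not between genes, and no detection calls were used.

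IL-6, oncostatin M (Osm) and leukemia inhibitory factor (Lif) signal through the shared receptor chain gp130 (Il6st) to Janus kinases and the transcription factor STAT3, whose target Socs3 feeds back on the pathway. IL-12 is a pair of Il12a and Il12b subunits, IL-23 a pair of Il23a and Il12b, and IL-27 a pair of Il27 and Ebi3. IL-10 is the main cytokine that restrains macrophages. Csf1 is the growth and survival factor of macrophages and acts through Csf1r, and Csf3 drives neutrophil production through Csf3r.

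Promoter sequence was matched for 5 of the 10 genes, in 6 windows because Il12a has a pair of start sites (RefSeq, GRCm38.p6). The windows of the matched genes that rose with RBC are shown, each the 250 bases before the start site, 5′ to 3′ on the gene's strand. Capitals mark matches, on either strand, to 3 motifs: GGGA, any 4 bases and CC (NF-kB), TGANTCA (AP-1) and TTGCNNAA (C/EBP).
Csf1, chr3:107760470-107760719, minus strand: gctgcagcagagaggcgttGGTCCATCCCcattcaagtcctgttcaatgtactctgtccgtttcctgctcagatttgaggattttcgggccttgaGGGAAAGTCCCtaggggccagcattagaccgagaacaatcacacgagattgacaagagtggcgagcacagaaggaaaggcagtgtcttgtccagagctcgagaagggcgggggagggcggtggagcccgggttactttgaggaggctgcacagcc
Il6, chr5:30012864-30013113, plus strand: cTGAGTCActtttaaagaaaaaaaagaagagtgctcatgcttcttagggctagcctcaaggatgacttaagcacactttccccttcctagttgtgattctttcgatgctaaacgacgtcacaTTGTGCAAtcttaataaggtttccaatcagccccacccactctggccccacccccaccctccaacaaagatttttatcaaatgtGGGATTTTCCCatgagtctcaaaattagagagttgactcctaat
Lif, chr11:4257318-4257567, plus strand: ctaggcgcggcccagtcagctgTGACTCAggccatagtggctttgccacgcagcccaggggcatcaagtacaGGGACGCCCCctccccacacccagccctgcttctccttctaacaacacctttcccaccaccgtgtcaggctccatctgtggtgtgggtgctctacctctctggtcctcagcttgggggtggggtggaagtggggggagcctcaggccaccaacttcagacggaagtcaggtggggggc
All 3 windows hold an NF-kB match, as do 17.6% of the 32851 promoters in the table. In Csf1 the matches start at -231, -155 and -154 relative to the start site, the last 2 being overlapping readings of the same bases on opposite strands. In Il6 the overlapping pair starts at -44 and -43, and the Lif match starts at -178. An AP-1 match starts at -249 in Il6 and at -228 in Lif, against 6.75% of all promoters with one, and a C/EBP match starts at -128 in Il6, against 9.56%. None of the 6 windows holds TTCNNNGAA (STAT), which 7.02% of promoters hold. These are matches of letters in these windows and not measured binding sites. The second Il12a window holds an NF-kB match, and the first Il12a window and the Il12b window hold no match to any of the 4 motifs. No promoter was matched for Osm, Il10, Il23a, Il27 or Csf3. Osm and Lif are direct neighbours on chromosome 11.

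Among macrophage genes, Lyz2 lay between 12.27 and 12.45 and Cd68 between 12.09 and 12.21 on all 12 arrays. Adgre1 varied more, from 8.92 to 10.21, as did Csf1r, from 9.77 to 10.69. The summed signal of 9 macrophage markers lay between 13.77 and 14.06 (log2). Of these 9, 2 were called higher and 0 lower in HF macrophages with each RBC. In chow macrophages 1 was called higher and 2 lower with each RBC, and the shares of all genes follow with the neutrophil genes. Some transcripts of neutrophils and platelets were higher with RBC. S100a9, a neutrophil protein, lay between 9.57 and 10.56 on the 8 exposed arrays and between 3.72 and 4.76 on the 4 unexposed ones. S100a8, of the same marker list, differed far less, with 10.45 to 11.20 on exposed arrays and 9.90 to 10.29 on unexposed ones. The summed signal of 15 neutrophil genes was 12.15 to 12.22 (log2) in HF macrophages with HF RBC, 11.50 to 11.62 with chow RBC and 10.64 to 10.83 without. In chow macrophages it was 11.80 to 11.93 with HF RBC, 11.68 to 11.87 with chow RBC and 10.88 to 10.98 without. In HF macrophages 6 of the 15 were called higher with HF RBC and 4 with chow RBC, where 0.647% and 0.557% of all genes were. In chow macrophages 5 were called higher and 1 lower with each RBC. There 5.41% of all genes were called higher and 2.93% lower with HF RBC, and 6.23% and 2.94% with chow RBC. The median difference of the 15 was 0.375 (HF RBC) and 0.232 (chow RBC) in HF macrophages, and 0.035 and -0.04 in chow macrophages. The 7 platelet genes measured summed to 10.48 to 11.52 on exposed arrays and to 9.95 to 11.09 on unexposed ones. In either macrophage diet 3 of the 7 were called higher with HF RBC and 4 with chow RBC, beside the same shares of all genes. Of 8 erythroid genes, 0 to 2 were called higher in an exposed group and 0 lower. Of 9 B cell genes, 5 were called lower with HF RBC and 3 with chow RBC in chow macrophages, and 0 in HF macrophages. Of 9 T and NK cell genes 0 were called in any exposed group. Macrophages can make all 10 cytokines, and some are also made by neutrophils. In these bulk samples a change in the cells present and a change in RNA per cell cannot be told apart. The part of blood cells in the results that follow was not tested.

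**Figure D1:**
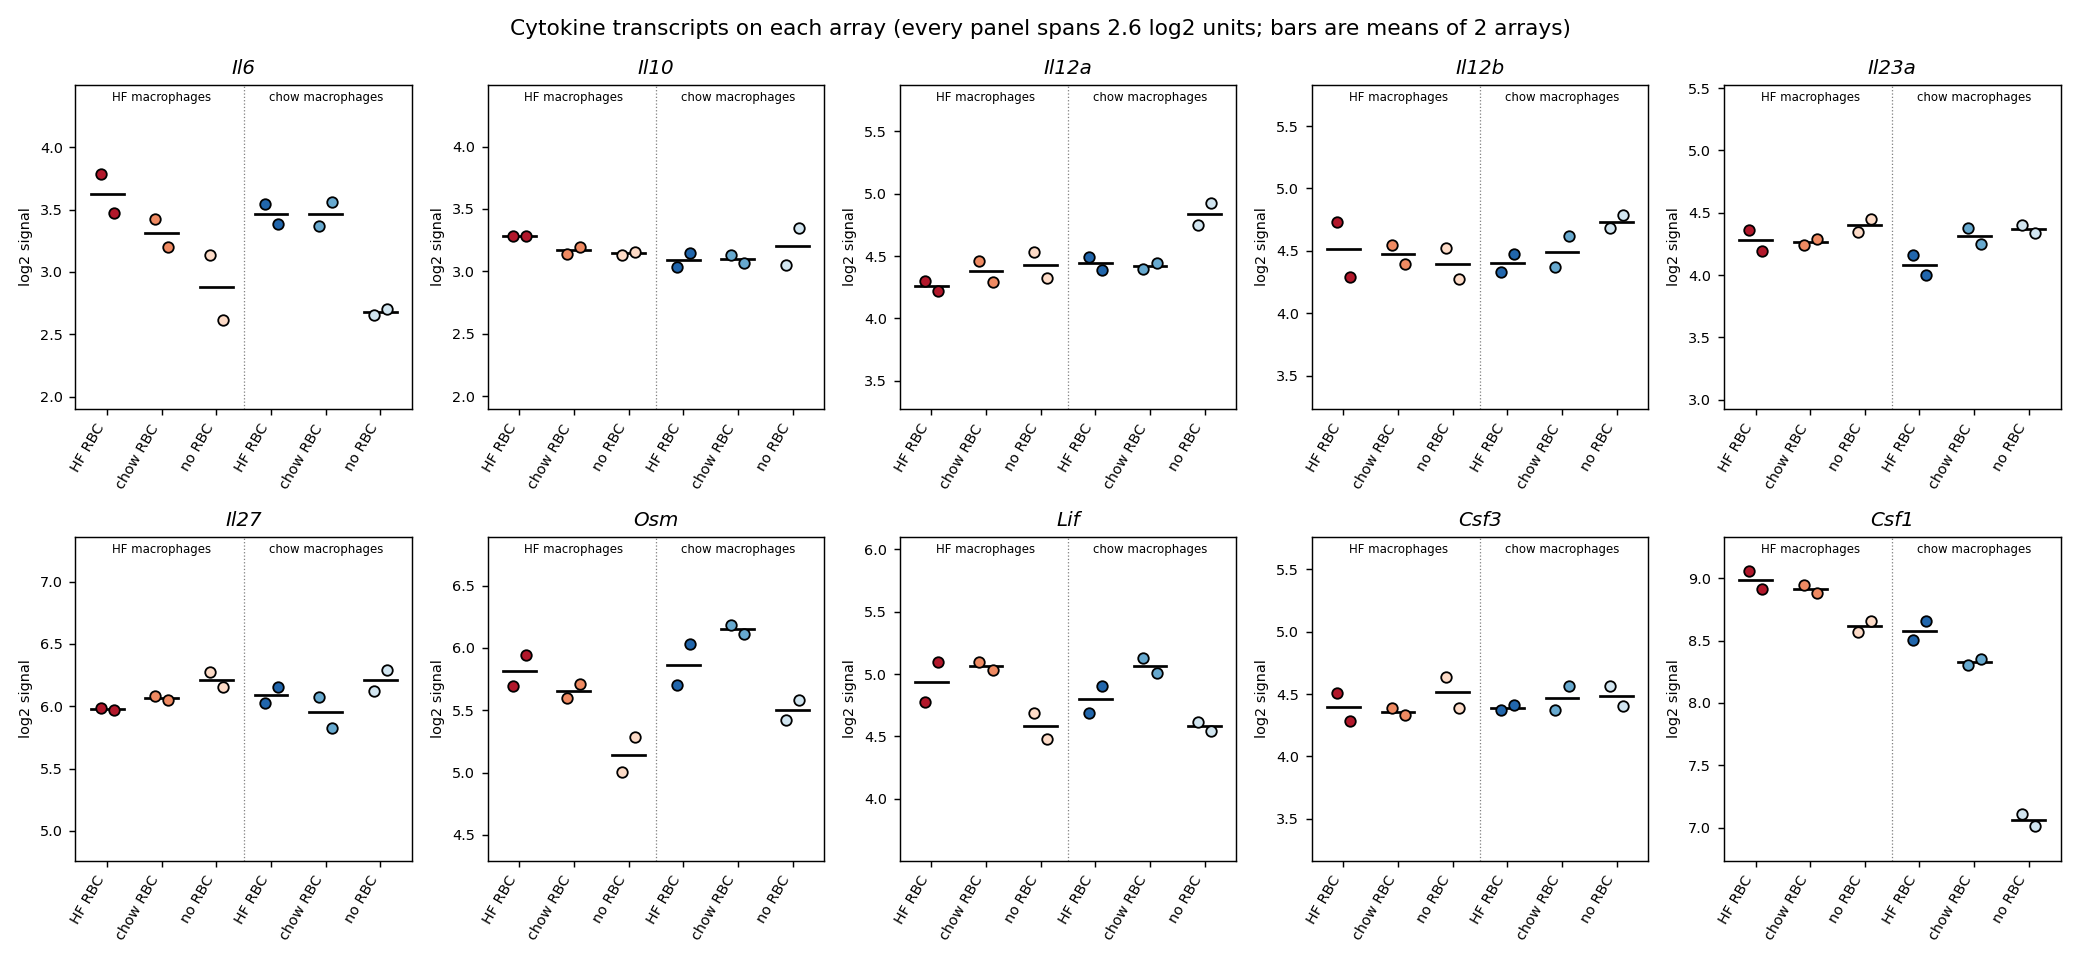
Log2 signal of the 10 cytokine genes (vertical axis of each panel) on the 12 arrays, with HF macrophages to the left of chow macrophages and the RBC given along the horizontal axis. Points are arrays and bars the means of 2 arrays. Il6 and Osm are higher on all 8 exposed arrays than on all 4 unexposed ones, and Csf1 stands lowest in chow macrophages without RBC, at 7.11 and 7.01.

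The first question was which cytokines changed when macrophages engulfed RBC. Of the 4 pairings of macrophages and RBC, Il6 was called higher in 3, Osm in 2 and Lif in 1, and Csf1 was called higher in both pairings with chow macrophages. Il6 read 3.78 and 3.47 in HF macrophages with HF RBC, 3.42 and 3.20 with chow RBC, and 3.13 and 2.62 without RBC. In chow macrophages it read 3.54 and 3.38 with HF RBC, 3.37 and 3.56 with chow RBC, and 2.66 and 2.71 without RBC. All 8 exposed arrays were above all 4 unexposed arrays, and the 4 exposed groups overlapped with their neighbours in the order of means. In HF macrophages the difference was 0.75 ± 0.16 with HF RBC (adjusted p = 0.047). With chow RBC it was 0.43 ± 0.16 there, which was not called (adjusted p = 0.36). In chow macrophages it was 0.78 ± 0.16 with HF RBC (adjusted p = 0.0068) and 0.78 ± 0.16 with chow RBC (adjusted p = 0.0063). The response of HF macrophages minus that of chow macrophages was -0.19 ± 0.19, with a 95% interval from -0.60 to 0.23, and was not called (adjusted p = 0.69). Il6 lies in the third of genes with the lowest mean signal, as do Il10 and Il23a.

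Osm, made by activated macrophages and neutrophils, read 5.70 and 5.94 in HF macrophages with HF RBC, 5.60 and 5.71 with chow RBC, and 5.0 and 5.29 without. In chow macrophages it read 5.70 and 6.03 with HF RBC, 6.18 and 6.11 with chow RBC, and 5.42 and 5.58 without. Again every exposed array exceeded every unexposed one, although the margin was narrow, 5.60 against 5.58. Between neighbours in the order of group means, the unadjusted interval left out 0 in 1 case. There unexposed HF macrophages lay 0.36 (0.07 to 0.65) lower than unexposed chow macrophages, which was not called. Osm rose by 0.67 ± 0.14 in HF macrophages with HF RBC (adjusted p = 0.037) and by 0.65 ± 0.14 in chow macrophages with chow RBC (adjusted p = 0.0079). The other pairings gave 0.51 ± 0.14 in HF macrophages with chow RBC (adjusted p = 0.15) and 0.36 ± 0.14 in chow macrophages with HF RBC (adjusted p = 0.12), neither called.

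Lif, which acts through Lifr and gp130, read 4.78 and 5.10 in HF macrophages with HF RBC, 5.10 and 5.03 with chow RBC, and 4.69 and 4.48 without. Chow macrophages read 4.69 and 4.91 with HF RBC, 5.13 and 5.01 with chow RBC, and 4.62 and 4.55 without. Both chow RBC groups stayed at or above 5.01, while the lowest array with HF RBC, in chow macrophages, reached the unexposed range, and each group overlapped with the next in the order of means. A rise was called in chow macrophages with chow RBC, 0.49 ± 0.12 (adjusted p = 0.025). The same RBC gave 0.48 ± 0.12 in HF macrophages (adjusted p = 0.13), and HF RBC gave 0.35 ± 0.12 in HF macrophages (adjusted p = 0.37) and 0.22 ± 0.12 in chow macrophages (adjusted p = 0.32).

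Counted over the list, 2 of 10 cytokines were called in HF macrophages with HF RBC, both higher, where 0.752% of all genes were called (0.647% higher, 0.105% lower). With chow RBC 0 of 10 were called by limma in HF macrophages, where 0.647% of all genes were called, and 4 of 10 had an unadjusted p under 0.05, as did 1925 of all 19938 genes. In chow macrophages 3 of 10 were called with HF RBC (2 higher, 1 lower), where 8.34% of all genes were called (5.41% higher, 2.93% lower). With chow RBC 5 of 10 were called in chow macrophages (4 higher, 1 lower), where 9.18% of all genes were (6.23% higher, 2.94% lower). The comparisons within a macrophage diet share their unexposed arrays. The median difference of the list averaged over both RBC kinds was 0.09 in HF macrophages and -0.08 in chow macrophages, beside -0.003 and -0.030 over all genes.

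Means over both RBC kinds, and over all exposed groups, were added after the data were seen. In HF macrophages Osm was called at 0.59 ± 0.12 (adjusted p = 0.023), where 1.08% of all genes were called, and Il6 was not, at 0.59 ± 0.14 (adjusted p = 0.06). In chow macrophages 5 of 10 were called, where 12.7% of all genes were. Averaged over all 4 exposed groups, 7.42% of all genes were called, and 5 of 10 cytokines: Csf1 rose by 0.86 ± 0.06, Il6 by 0.69 ± 0.10, Osm by 0.55 ± 0.08 and Lif by 0.38 ± 0.08, while Il12a fell by 0.26. All 8 exposed arrays stood above all 4 unexposed ones for 2 of the 10, Il6 and Osm, and for 1.30% of all genes.

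The calls of Il6, Osm and Lif in single groups rested on individual arrays. In HF macrophages with HF RBC, leaving out either exposed array ended both calls, as did leaving out replicate 2 of the unexposed group for Il6 (adjusted p = 0.13) and replicate 1 for Osm (0.27). Without replicate 2 of chow macrophages with chow RBC, the adjusted p of Il6 there was 0.066. Osm there had 0.069 without replicate 1 of that group and 0.068 without replicate 1 of the unexposed chow group, and Lif was not called with any 1 of the 4 arrays left out (0.063 to 0.17). With HF RBC in chow macrophages, Il6 had 0.078 without replicate 1 of that group. Averaged over both RBC kinds, Osm in HF macrophages was not called without either chow RBC array, replicate 2 with HF RBC or replicate 1 without RBC (0.052 to 0.31). In chow macrophages the averaged call of Lif was lost without any but 1 of the 6 arrays, and those of Osm and Il12a without replicate 1 (0.12) and replicate 2 (0.19) of the unexposed group. Averaged over all exposed groups, Csf1, Il6, Osm and Lif were called whichever array was left out, and Il12a was not called without 7 of the 12 arrays, each left out alone (0.052 to 0.18). The share of all genes called also moved with single arrays. Without replicate 2 of unexposed HF macrophages it was 1.45% for HF RBC and 2.3% for chow RBC in HF macrophages, 3.27% over both and 14.1% over all exposed groups. Without replicate 2 of unexposed chow macrophages it was 3.64% for chow RBC in chow macrophages, 4.79% over both RBC kinds there and 3.42% over all exposed groups.

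**Figure D2:**
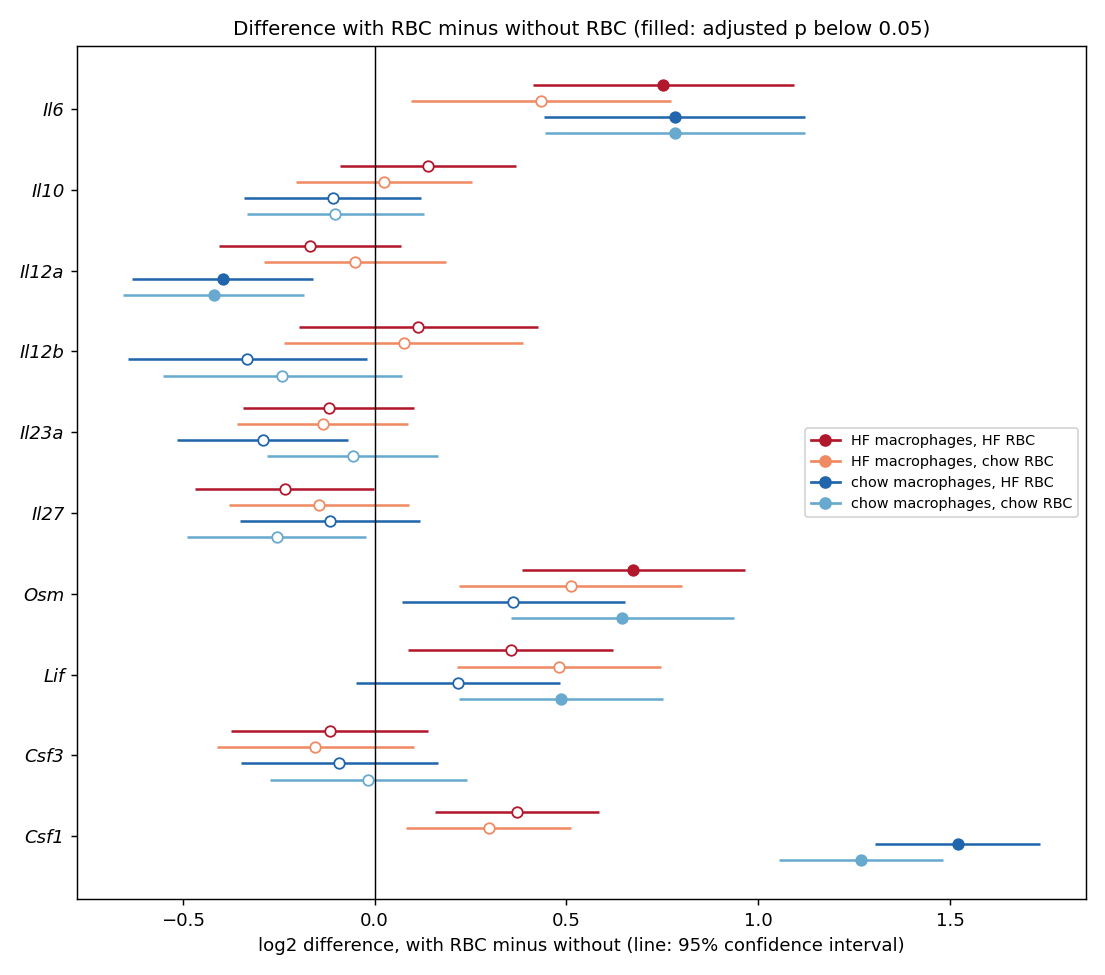
Log2 difference with RBC minus without RBC (horizontal axis) for each cytokine gene in the 4 pairings of macrophages and RBC. Lines are 95% confidence intervals and filled points have an adjusted p below 0.05. Il6, Osm, Lif and Csf1 lie to the right of 0 in all 4 pairings, and Csf1 is at 0.37 and 0.30 in HF macrophages with HF and chow RBC, against 1.52 and 1.27 in chow macrophages with the same RBC.

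Csf1 had the widest range of the 10 cytokines, and was called both between macrophage diets without RBC and with RBC in chow macrophages. It read 9.06 and 8.92 in HF macrophages with HF RBC, 8.94 and 8.88 with chow RBC, and 8.57 and 8.66 without RBC. In chow macrophages Csf1 read 8.5 and 8.65 with HF RBC, 8.30 and 8.35 with chow RBC, and 7.11 and 7.01 without. Chow macrophages without RBC stood apart below all other groups, and with HF RBC, but not with chow RBC, chow macrophages reached the range of unexposed HF macrophages. Going down the order of group means, HF macrophages with HF and with chow RBC overlapped (8.99 and 8.91). HF macrophages without RBC (8.61) lay 0.30 lower (95% interval 0.08 to 0.51) and overlapped with chow macrophages given HF RBC (8.58). Chow macrophages with chow RBC (8.33) followed, 0.25 lower (0.04 to 0.47), and those without RBC (7.06) came last, 1.27 lower still. The intervals are not adjusted for the number of genes, and neither the step of 0.30 nor that of 0.25 was called.

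In HF macrophages the difference in Csf1 was 0.37 ± 0.10 with HF RBC (adjusted p = 0.16) and 0.30 ± 0.10 with chow RBC (adjusted p = 0.31), neither called, although all exposed arrays were above both unexposed ones, as for 8.87% of all genes. In chow macrophages Csf1 rose 2.87-fold with HF RBC, by 1.52 ± 0.10 on the log2 scale (adjusted p = 4.8e-07), and 2.41-fold with chow RBC, by 1.27 ± 0.10 (adjusted p = 2.9e-06). The test of the difference between the macrophage diets was called for Csf1: the response averaged over both RBC kinds was 0.33 in HF macrophages and 1.39 in chow macrophages, a difference of -1.06 ± 0.12 (adjusted p = 0.00012). Csf1 was the 1 of 10 cytokines called in this test, in which 5.67% of all genes were. Leaving out each array in turn gave differences from -1.11 to -1.01, all called. In the list as a whole, 2 of 10 had an unadjusted limma p under 0.05 in this test, Csf1 and Il12a, as did 3544 of all 19938 genes.

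The summed signal of mesothelial and fibroblast markers, like Csf1, was lowest in chow macrophages without RBC. With RBC this sum was lower in HF than in chow macrophages, whereas Csf1 was higher in HF macrophages. The 10 mesothelial and fibroblast genes, cells of the peritoneal lining that also make Csf1, summed to 9.92 to 10.05 (log2) on the 6 arrays of HF macrophages, to 10.07 to 10.17 in chow macrophages with RBC and to 9.67 to 9.70 in those without. Over both RBC kinds, 1 of the 10 was called lower in HF macrophages (0.201% of all genes) and 4 were called higher in chow macrophages (8.22% of all genes). Without RBC, 3 were called higher in HF than in chow macrophages (8.12% of all genes). With RBC, Col1a2 changed by 0.80 ± 0.08 (adjusted p = 1.7e-05) and Col1a1 by 0.65 ± 0.09 (adjusted p = 0.00039) in chow macrophages. The part of these cells in the Csf1 values was not tested. The genes most like Csf1 over the 12 arrays were Nckap1 (Pearson r = 0.992), Tmem175 (0.985) and Tead1 (0.983), which is a description of arrays that share their groups.

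Without RBC, the diet of the macrophage donor moved Csf1 and Il12a in opposite directions. Csf1 was 2.94-fold higher in HF macrophages than in chow macrophages, a difference of 1.55 ± 0.10 (adjusted p = 1e-07). With chow RBC the diet difference in Csf1 was 0.58 ± 0.10 (adjusted p = 0.0057), and with HF RBC it was 0.41 ± 0.10, which was not called (adjusted p = 0.07). In the chow RBC pairing the Csf1 call was lost without replicate 1 of the HF group (adjusted p = 0.072) or of the chow group (0.062). Over the list, 2 of 10 cytokines were called without RBC (13.9% of all genes), 1 of 10 with chow RBC (2.47% of all genes) and 0 of 10 with HF RBC (1.36% of all genes). In the last, 1 of 10 had an unadjusted limma p under 0.05, as did 1934 of all 19938 genes. For Osm the diet difference was -0.36 ± 0.14 without RBC (adjusted p = 0.10) and -0.49 ± 0.14 with chow RBC (adjusted p = 0.082), neither called. With HF RBC the Osm difference was -0.04 ± 0.14.

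**Figure D3:**
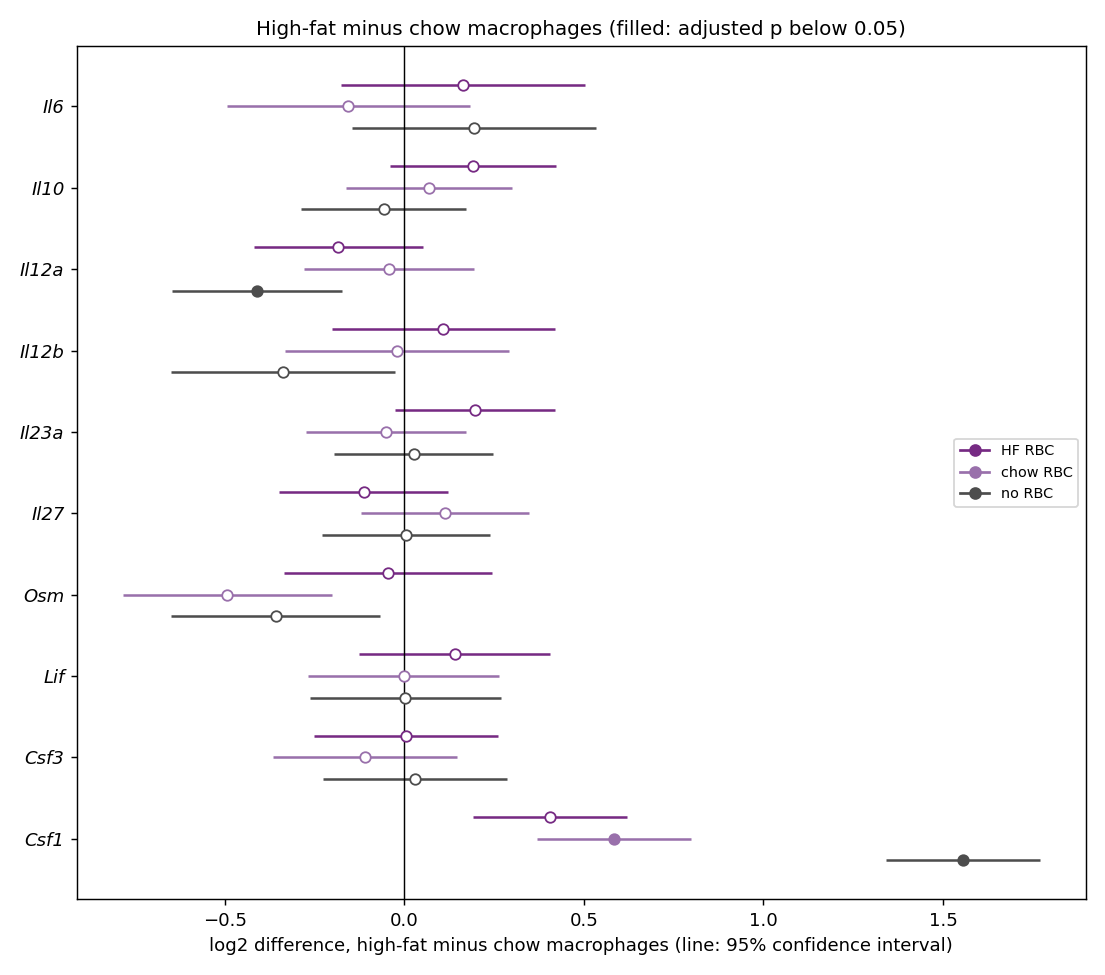
Log2 difference of HF minus chow macrophages (horizontal axis) for each cytokine gene with HF RBC, with chow RBC and without RBC. Lines are 95% confidence intervals and filled points have an adjusted p below 0.05. Csf1 is to the right of 0 in all 3 conditions, at 1.55 without RBC and 0.58 and 0.41 with chow and HF RBC, and Il12a without RBC is at -0.41.

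Among the IL-12 family subunits in the list of 10 cytokines, Il12a, the p35 subunit of IL-12, was the one called. Il12a read 4.30 and 4.22 in HF macrophages with HF RBC, 4.46 and 4.29 with chow RBC, and 4.54 and 4.32 without. In chow macrophages it read 4.49 and 4.39 with HF RBC, 4.40 and 4.44 with chow RBC, and 4.75 and 4.93 without. The 2 arrays of unexposed chow macrophages stood above the other 10, whose 5 groups each overlapped with the next in the order of means. In HF macrophages the difference in Il12a was -0.17 ± 0.11 with HF RBC and -0.05 ± 0.11 with chow RBC, neither called. Il12a fell by 0.40 in chow macrophages with HF RBC (SE 0.11, adjusted p = 0.04) and fell by 0.42 with chow RBC (SE 0.11, adjusted p = 0.028). Without RBC it was lower in HF than in chow macrophages (-0.41 ± 0.11, adjusted p = 0.022). The difference between the diets in the averaged response was 0.30 ± 0.13 and not called (adjusted p = 0.27). In chow macrophages with HF RBC, leaving out any 1 of the 4 arrays ended the call (0.054 to 0.30), and with chow RBC 3 of the 4 did (0.086 to 0.25). The diet call was lost without replicate 2 of unexposed chow (0.2) or HF macrophages (0.14).

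Il12b, the p40 subunit shared by IL-12 and IL-23, read between 4.28 and 4.73 on the 10 arrays of the other groups, against 4.68 and 4.79 in unexposed chow macrophages. Its differences with RBC in chow macrophages were -0.33 ± 0.14 for HF RBC (adjusted p = 0.19) and -0.24 ± 0.14 for chow RBC (adjusted p = 0.34), and the diet difference without RBC was -0.34 ± 0.14 (adjusted p = 0.16). The p19 subunit of IL-23, Il23a, lay between 4.0 and 4.45 on all arrays, lowest in chow macrophages with HF RBC at 4.16 and 4.0, where its difference from unexposed cells was -0.29 ± 0.10 (adjusted p = 0.10). Il27, the p28 subunit of IL-27, lay between 5.83 and 6.29. Its 4 differences with RBC were all below 0, from -0.26 to -0.12, and none was called. The B cell marker genes also read highest in unexposed chow macrophages, with a summed signal of 7.48 to 8.18 on the other 10 arrays, against 8.48 to 8.58 in unexposed chow macrophages, and their part in the IL-12 values was not tested.

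Il10 and Csf3 were not called in any comparison. Il10 lay between 3.04 and 3.35 over all arrays, and its 4 differences with RBC ran from -0.11 to 0.14. The 95% intervals of these Il10 differences reached from -0.34 to 0.37. Csf3 lay between 4.28 and 4.64, with differences with RBC from -0.15 to -0.02 and intervals from -0.41 to 0.24.

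The study's central question, whether RBC of HF-fed mice act differently from RBC of chow-fed mice, gave no call among these cytokines. In HF macrophages 0 of 10 were called between HF and chow RBC (limma; 0 of 10 had an unadjusted p under 0.05, and 0.0251% of all genes were called). In chow macrophages 0 of 10 were called, 3 of 10 had an unadjusted limma p under 0.05 and 0 of the 19938 genes were called (555 at an unadjusted p under 0.05). Those 3 cytokines were Csf1 at 0.25 ± 0.10, Lif at -0.27 ± 0.12 and Il23a at -0.23 ± 0.10. For Il6 the difference was 0.32 ± 0.16 in HF macrophages (95% interval -0.02 to 0.66) and 0.00 ± 0.16 in chow macrophages (-0.34 to 0.34). For Osm it was 0.16 ± 0.14 in HF macrophages and -0.28 ± 0.14 in chow macrophages, and the difference between these, 0.45 ± 0.19, had an unadjusted limma p of 0.0348 and an adjusted p of 1. In that test of the difference 0 of 10 cytokines and 0 of the 19938 genes were called, and 1 of 10 and 718 had an unadjusted p under 0.05. In the lists read below, 1 of 11 related cytokines and 1 of 18 STAT3 target genes were called higher with HF than with chow RBC in HF macrophages. So were 0 of 12 receptors, 0 of 16 Janus kinase, STAT and feedback genes and 0.0251% of all genes. Il1b, a related cytokine, read 6.34 and 6.16 in HF macrophages with HF RBC, against 5.19 and 5.20 with chow RBC. In chow macrophages Il1b read 6.28 and 5.78 with HF RBC, against 5.67 and 5.89 with chow RBC, which overlap. The neutrophil sum given above was also higher with HF than with chow RBC in HF macrophages, and its part in the Il1b values was not tested.

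The receptors of these cytokines were read on the same arrays. Of 12 receptor genes, 6 differed between HF and chow macrophages without RBC, 2 higher and 4 lower. In this comparison 13.9% of all genes were called (8.12% higher, 5.82% lower). Csf1r, the receptor of Csf1, read 9.77 and 9.91 in unexposed HF macrophages, against 10.61 and 10.69 in unexposed chow macrophages (-0.81 ± 0.10, adjusted p = 5.5e-05), the opposite direction to its ligand. Csf3r, the Csf3 receptor and also a neutrophil marker, read 6.04 and 6.22 in unexposed HF macrophages, against 7.08 and 7.02 in unexposed chow macrophages (-0.92 ± 0.12, adjusted p = 9.4e-05). Il6ra, which binds IL-6, was also lower (-0.48 ± 0.09, adjusted p = 0.0027), as was the IL-10 receptor chain Il10ra (-0.71 ± 0.16, adjusted p = 0.0071). Osmr, which pairs with gp130 to bind Osm, was higher (0.45 ± 0.12, adjusted p = 0.025), and so was the IL-12 receptor chain Il12rb2 (0.57 ± 0.14, adjusted p = 0.012). The macrophage marker Adgre1 was lower too, by -1.17 ± 0.11 (adjusted p = 4.2e-06), and of 9 macrophage markers, Csf1r among them, 5 were lower, 1 was higher and 3 were not called in this comparison. The part of cell composition in the receptor values was not tested.

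Most receptors were not called with RBC. In HF macrophages Csf3r was the 1 of 12 called, where 0.752% of all genes were called with HF RBC and 0.647% with chow RBC. It read 7.07 and 7.32 with HF RBC, 6.75 and 6.88 with chow RBC, and 6.04 and 6.22 without. Csf3r, itself among the 15 neutrophil genes summed above, rose by 1.06 ± 0.12 with HF RBC (adjusted p = 0.00029) and by 0.69 ± 0.12 with chow RBC (adjusted p = 0.013). In chow macrophages, where the neutrophil sum also rose, Csf3r was not called. It read 7.05 and 7.12 there with HF RBC, 6.78 and 7.01 with chow RBC, and 7.08 and 7.02 without. In chow macrophages Osmr rose and Csf1r fell with each RBC, 1 of 12 in each direction. There 5.41% of all genes were called higher and 2.93% lower with HF RBC, and 6.23% and 2.94% with chow RBC. Osmr read 5.71 and 5.74 in chow macrophages with HF RBC, 5.72 and 5.83 with chow RBC, and 5.04 and 4.99 without. Its rise was 0.71 ± 0.12 with HF RBC (adjusted p = 0.0021) and 0.76 ± 0.12 with chow RBC (adjusted p = 0.0013). Csf1r differed by -0.42 ± 0.10 with HF RBC (adjusted p = 0.016) and by -0.40 ± 0.10 with chow RBC (adjusted p = 0.022). In the test of the difference between macrophage diets, 4 of 12 receptors were called, where 5.67% of all genes were: Csf3r (0.93 ± 0.14), Csf1r (0.69 ± 0.12) and Il6ra (0.44 ± 0.11) higher and Osmr (-0.70 ± 0.15) lower. Il6st, the gp130 chain, lay between 8.77 and 9.09 on all arrays and was called in none of these comparisons.

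**Figure D4:**
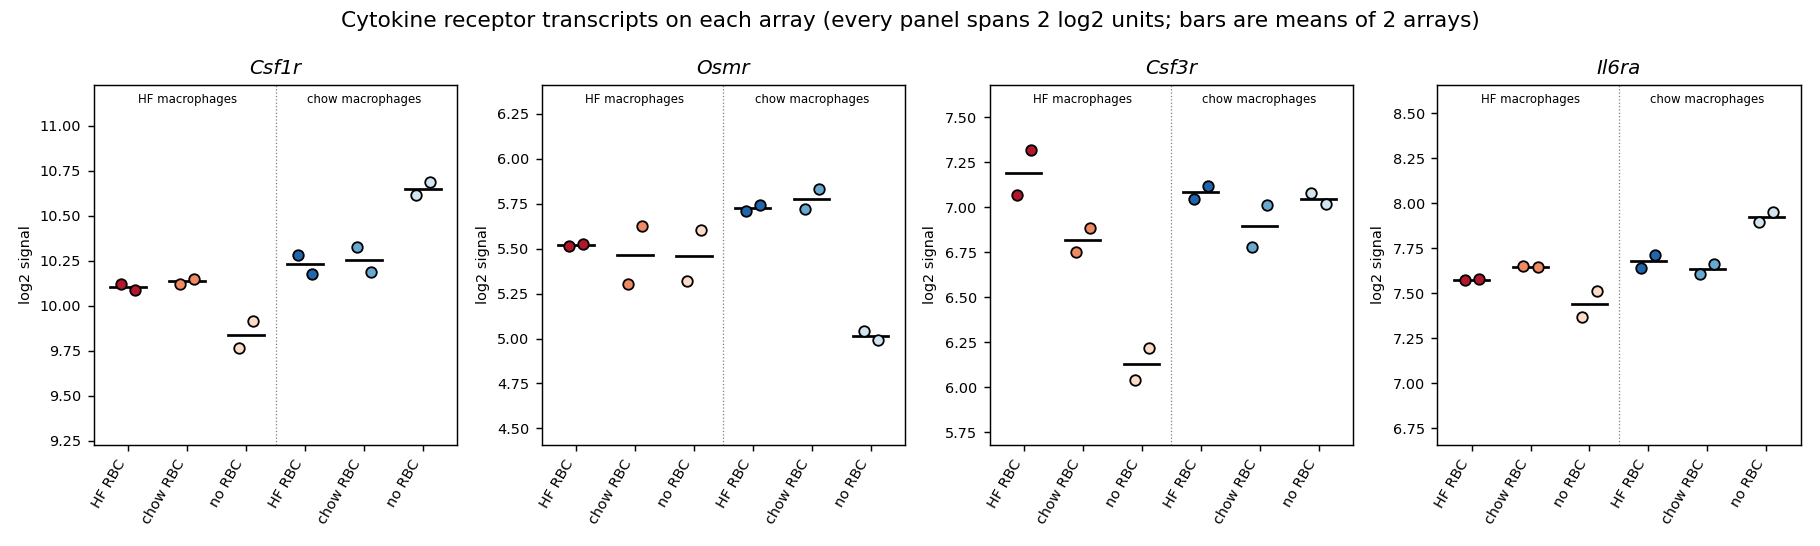
Log2 signal (vertical axis, each panel spanning 2 units) of 4 receptor genes on the 12 arrays, HF macrophages left and chow macrophages right, by RBC given. Points are arrays and bars the means of 2 arrays. Csf1r and Il6ra are highest, and Osmr lowest, in chow macrophages without RBC, and Csf3r is lowest in HF macrophages without RBC, at 6.04 and 6.22.

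Of the 11 related cytokines measured, Ebi3, the partner subunit of Il27, read 6.66 and 6.79 in HF macrophages without RBC, against 7.45 and 7.42 in chow macrophages without RBC (-0.72 ± 0.10, adjusted p = 0.00014). With chow RBC the diet difference in Ebi3 was -0.54 ± 0.10 (adjusted p = 0.0079). Without RBC, Tnf and Il1b were also lower in HF macrophages, so that 3 of the 11 were called lower and 0 higher. Of all genes, 5.82% were called lower and 8.12% higher in that comparison.

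Of 16 Janus kinase, STAT and feedback genes downstream of these receptors, 5 were lower in HF than in chow macrophages without RBC, 0 were higher and 11 were not called. Of all genes, 5.82% were called lower and 8.12% higher there. Socs3, the feedback inhibitor induced by STAT3, read 5.69 and 5.56 in unexposed HF macrophages and 6.67 and 6.45 in unexposed chow macrophages (-0.94 ± 0.13, adjusted p = 0.00018). The kinase Jak2 was lower as well (-0.79 ± 0.12, adjusted p = 0.0003). In HF macrophages 0 of the 16 were called by limma with either RBC, where 0.752% (HF RBC) and 0.647% (chow RBC) of all genes were. With each RBC 2 of the 16 had an unadjusted limma p under 0.05, as did 1741 (HF RBC) and 1925 (chow RBC) of all 19938 genes. In chow macrophages 4 were lower with HF RBC and 3 with chow RBC, where 2.93% and 2.94% of all genes were, and 0 were higher. The median differences were -0.052 and -0.064, beside -0.033 and -0.024 over all genes. Socs3 fell in chow macrophages, with differences of -0.65 ± 0.13 for HF RBC (adjusted p = 0.0064) and -0.67 ± 0.13 for chow RBC (adjusted p = 0.005). The test of the difference between macrophage diets called 2 of the 16, both with the higher difference in HF macrophages, and 5.67% of all genes. Stat3 itself lay between 7.82 and 8.33 on all arrays and was not called in any of these comparisons.

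A list of 18 genes known as STAT3 targets, several of which NF-kB also drives, was read in the same way. Without RBC, 11 of 18 were lower, 1 was higher and 6 were not called in HF against chow macrophages, with a median of -0.54 beside -0.011 over all genes. Of all genes, 5.82% were called lower and 8.12% higher in this comparison. Lower were Saa3, an acute-phase protein (-1.66 ± 0.10, adjusted p = 3.5e-08), Lcn2, an iron-binding protein of innate defence (-1.61 ± 0.13, adjusted p = 8.2e-07), the NF-kB cofactor Bcl3 (-1.91 ± 0.15, adjusted p = 8.2e-07) and the IL-4 receptor chain Il4ra (-1.22 ± 0.09, adjusted p = 5.8e-07). With RBC, 4 of 18 rose in HF macrophages for each RBC kind and 0 fell, where 0.647% (HF RBC) and 0.557% (chow RBC) of all genes rose. Lcn2 rose by 2.38 ± 0.13 with HF RBC (adjusted p = 2.4e-07) and by 1.43 ± 0.13 with chow RBC (adjusted p = 4.9e-05), and Bcl3 by 1.14 ± 0.15 (adjusted p = 0.0014) and 1.22 ± 0.15 (adjusted p = 0.00089) with the same RBC. In chow macrophages 1 rose and 3 fell with HF RBC, where 5.41% of all genes rose and 2.93% fell. With chow RBC 2 rose and 1 fell, where 6.23% of all genes rose and 2.94% fell. Timp1, an inhibitor of matrix proteases that fibroblasts also make, was the 1 higher with HF RBC, at 1.01 ± 0.18 (adjusted p = 0.0027). The test of the difference between macrophage diets called 6 of 18, all with the higher difference in HF macrophages, and did not call 12, where 5.67% of all genes were called. Among them were Lcn2 at 1.59 ± 0.16 (adjusted p = 3.2e-05) and Bcl3 at 1.61 ± 0.18 (adjusted p = 0.00012), while Csf1 lay at -1.06. Neutrophils also carry Lcn2, and its values stand beside the neutrophil sums given above.

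**Figure D5:**
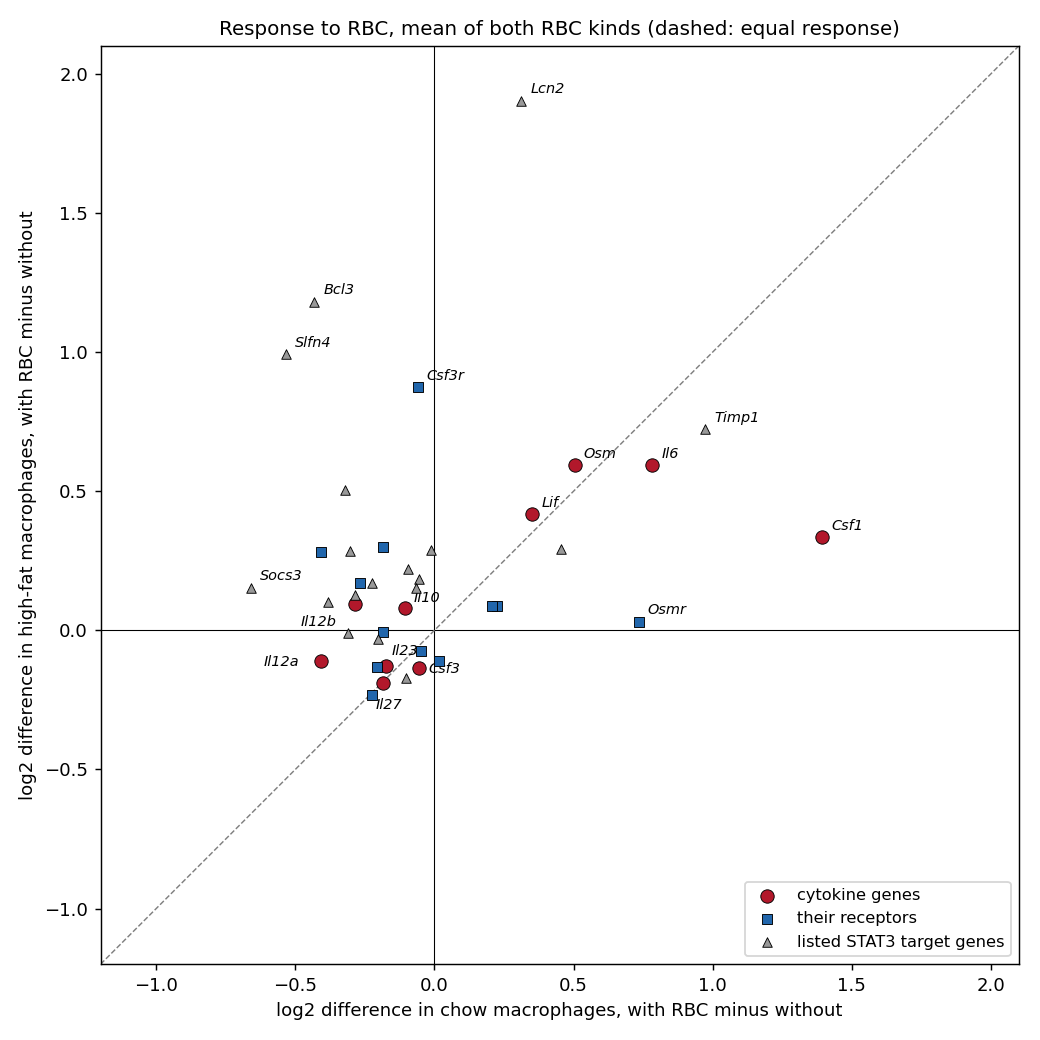
Log2 difference with RBC minus without RBC, averaged over both RBC kinds, in HF macrophages (vertical axis) against chow macrophages (horizontal axis). Circles are the cytokine genes, squares their receptors and triangles the listed STAT3 target genes, and the dashed line marks equal responses. Il6, Osm and Lif lie near the line, Csf1 (0.33 and 1.39) and Osmr far below it, and Lcn2, Bcl3 and Csf3r far above it.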

How the data were processed

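RNA of 12 samples was hybridised to 1 Affymetrix Mouse Gene 1.0 ST array each. Per the labels' protocols, RNA was column-purified and amplified and labelled with WTA-Ovation FFPE V2 and Encore biotin kits. The authors deposited log2 signals per probe set and array, with array medians from 4.84 to 4.96. The log2 scale was read from the values (1.46 to 13.33). How the authors summarized and normalized the arrays was not given in the sources used here. Raw intensities were not used, so signal over background is unknown, and precision is limited by 2 arrays per group.

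Of 35557 probe sets, 35556 had values, and 23410 were listed in the platform annotation, 21789 with 1 gene symbol and 1621 with several, which were left out. The 12146 unlisted ones are unnamed here. Where a gene had more than 1 probe set (999 genes), the brightest by mean stood for it, leaving 19938 genes, and low values were not filtered. Groups come from the sample labels.

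Using limma 3.58.1 (R 4.3.3), each group was given its own mean in a single lmFit and eBayes fit to the 12 arrays (6 residual and 7.69 prior df), a procedure tested on simulated data. Adjusted p-values are Benjamini-Hochberg values over all 19938 genes of a comparison. Every cytokine of the list is named. Other genes are named by a rule: receptors, a fixed set (S100a9, Ppbp, Adgre1, Csf1r, Lyz2, Cd68, Ebi3, Csf2, Il1b, Tnf, Socs3 and Stat3), up to 4 called genes of smallest p per list and comparison, and the 3 genes most like a cytokine called in the test of the difference between macrophage diets. The cytokines, gene lists and tests were chosen with earlier results of these data known. S100a8 was named beside S100a9 after the data were seen. Marker sums add linear signals of a list per array. Alternatives were quantile normalization, leaving out the third of genes with the lowest mean, robust eBayes with an intensity trend, replicate blocks, averaging all probe sets of a gene, an adjusted p below 0.10, a fit to the compared arrays and omission of each array.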

Additional observations from a re-analysis of the deposited data

Results flagged for a closer look

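Csf1 was marked for a closer look because its response to RBC differed between the macrophage diets by a test of the difference itself. The response averaged over both RBC kinds was 0.33 in HF macrophages and 1.39 in chow macrophages, and the difference was -1.06 ± 0.12 (limma adjusted p = 0.00012). All 4 exposed arrays were above both unexposed arrays in HF macrophages, as for 8.87% of all genes. The same held in chow macrophages, as for 20.2% of all genes. The 10 arrays of the other groups read 8.30 to 9.06, against 7.11 and 7.01 in chow macrophages without RBC.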

How the results depend on the processing

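The direction of no called difference was reversed. Of 1985 single-gene differences recomputed, 52 lost and 16 gained a call, and 90 changed sign while called in neither fit. The difference between macrophage diets in the response of Csf1, and its rises in chow macrophages, were called under each alternative. Counts of cytokines called moved as follows, beside the replicate blocks given last. In chow macrophages the count of 3 with HF RBC became 2 with quantile normalization, without the third of genes with the lowest mean or with an intensity trend, the count of 5 with chow RBC became 4 without those low genes, and the count of 5 over both became 4 without those low genes or with the trend. Over all exposed groups the count of 5 became 6 with quantile normalization and 4 without those low genes. In HF macrophages with HF RBC the count of 2 became 1 without those low genes (Il6 is among those removed) and 0 in a fit to the compared arrays. Averaged over both RBC kinds in HF macrophages, the count of 1 became 2 with quantile normalization or at an adjusted p below 0.10, 3 with an intensity trend and 0 in a fit to the compared arrays. Between macrophage diets, the count of 0 with HF RBC became 1 (Csf1) without the third of genes with the lowest mean, with an intensity trend or at an adjusted p below 0.10. With chow RBC the count of 1 became 2 (Osm added) at 0.10, and without RBC the count of 2 became 1 in a fit to the compared arrays. The cause of these moves was not tested.

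With each array left out in turn, HF macrophages had 0 to 1 of 10 called with HF RBC, 0 to 1 with chow RBC and 0 to 2 over both. Chow macrophages had 1 to 2 with HF RBC, 2 to 3 with chow RBC and 3 to 5 over both. Averaged over all exposed groups 4 to 5 were called. Between macrophage diets, 0 to 0 were called with HF RBC, 0 to 1 with chow RBC and 1 to 2 without RBC. The difference between macrophage diets in the response gave 1 to 1, and the comparisons of HF with chow RBC gave 0 to 0. The number of all genes called moved in both directions. In HF macrophages 150 with HF RBC became 66 to 290, 129 with chow RBC became 54 to 458 and 215 over both became 120 to 652. In chow macrophages 1663 with HF RBC became 710 to 1108, 1830 with chow RBC became 726 to 1303 and 2539 over both became 956 to 2239. Over all exposed groups 1480 became 681 to 2812. Between macrophage diets 272 with HF RBC became 121 to 161, 492 with chow RBC became 181 to 233 and 2780 without RBC became 1600 to 2590. For the difference between diets in the response, 1131 became 558 to 1115.

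Same-numbered arrays within a macrophage diet had correlations of their deviations from -0.077 to 0.344, and the labels do not state a shared animal, so no pairing was assumed. With the replicate number as a block over all groups, the counts were 2 in place of 1 between macrophage diets with chow RBC (Osm, adjusted p = 0.038) and 2 in place of 1 in HF macrophages over both RBC kinds (Il6, adjusted p = 0.043). The replicate block within macrophage diet also gave 2 in that comparison. The mean over both RBC kinds in chow macrophages gave 4 in place of 5 under either block (Lif not called, 0.06 and 0.063), and the other counts were unchanged. The pathway and marker lists were not refitted under the alternatives.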
